A study of Mus musculus with 8 samples.

Results

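The ATP-binding cassette (ABC) transporters were examined in brain endothelial cells (ECs) of mouse pups with and without EC expression of constitutively active MAP2K1, the kinase that phosphorylates ERK. A gene was taken as a member when its symbol placed it in one of the ABC subfamilies A to G, and 38 of the 16889 genes in the deposited normalized values met this rule. The count files held 50 such symbols, and the other 12 had too few reads to enter the normalized values, with at most 18 reads in any library. Of the 38 members, 9 belonged to a list of efflux pumps that was compared with the 29 members outside it. The mutant group (labelled *Map2k1* K57N) comprised 4 *R26GT-Map2k1-GFP/+;Tg-Cdh5CreER+/-* pups, in which the CAG promoter drives a *Map2k1* (p.K57N) cDNA from the *Rosa* locus once Cre has removed a stop cassette. The *Cdh5* promoter directs the tamoxifen-inducible Cre to ECs. The control group comprised 4 pups labelled wild type, whose genotype is given as wild type in the text of the study and as a Cre carrier in the title of a supplementary file. All pups received tamoxifen on postnatal day 1 and were analysed on day 9, and each gave 1 library from whole-brain ECs isolated with beads that bind CD31. Only part of the mutant ECs carried the recombined allele, so each mutant library averages recombined and other cells, and fewer cells of a type and less RNA per cell cannot be told apart in such bulk samples.

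ABC transporters couple the hydrolysis of ATP, at a pair of nucleotide-binding domains, to the movement of a substrate across a membrane. In brain ECs, P-glycoprotein (the product of *Abcb1a* and *Abcb1b* in the mouse, and of a single gene in humans) and breast cancer resistance protein (*Abcg2*) sit on the blood-facing membrane and return drugs and other lipophilic compounds to the blood, which makes them the best-known pumps of the blood-brain barrier. Other subfamilies export cholesterol and phospholipids (A and G), serve mitochondria and lysosomes (B), carry conjugated anions or form part of potassium channels (C), and import fatty acids into peroxisomes (D). The proteins of subfamilies E and F have no membrane-spanning part and act at the ribosome.

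*Abcb1a* and *Abcb1b* are closely related neighbours, and their longest transcripts (GENCODE vM21) shared an unbroken identical run of 338 bases within the coding part. The following 150 bases, the length of 1 read mate, come from that run. They show why a mate that lies within it cannot be given to either gene by its own sequence. The other mate of its pair can lie outside the run. They stand at positions 1663 to 1812 of the *Abcb1a* transcript and 1630 to 1779 of the *Abcb1b* transcript, counted from 1 at the transcript's 5′ end. The capitals mark the 15 bases that encode the signature motif by which ABC proteins are recognised.
Abcb1a and Abcb1b: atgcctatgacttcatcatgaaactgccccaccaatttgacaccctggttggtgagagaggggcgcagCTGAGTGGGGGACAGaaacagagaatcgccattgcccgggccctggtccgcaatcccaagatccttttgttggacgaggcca
Of the 75-base windows of these transcripts, 11.3% in *Abcb1a* and 12.6% in *Abcb1b* were also found in another gene. How the counting treated reads from such windows is not given in the sources used here, so the smaller of both counts, that of *Abcb1b*, is uncertain by any reads of *Abcb1a* assigned to it. The share was 64.5% for *Abcb6*, which overlaps the gene model Gm29253 on the same strand, and at most 1.5% for every other member.

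Promoters from RefSeq (GRCm38.p6, 250 bases before to 50 after the transcription start) were matched to 26 members by symbol, and for 24 of them the start lay within 200 bases of that of the counted gene. They were searched on both strands for TGANTCA (AP-1), CGGAAG (ETS factors), GCGTG (the aryl hydrocarbon receptor) and CTTTGA (TCF/LEF factors), none of which is contained in another. The promoters of 3 members that differed strongly between the groups are shown, in the direction of the gene, with every match in capitals, to set a promoter with repeated matches beside promoters with a single match or none.
Abcb1b, chr5:8797897-8798196, plus strand: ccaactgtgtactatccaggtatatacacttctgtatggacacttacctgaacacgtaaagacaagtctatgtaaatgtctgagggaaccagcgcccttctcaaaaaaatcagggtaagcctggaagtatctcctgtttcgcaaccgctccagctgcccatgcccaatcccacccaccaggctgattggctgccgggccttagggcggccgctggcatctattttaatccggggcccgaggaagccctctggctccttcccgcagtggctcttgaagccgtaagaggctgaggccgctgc
Abca5, chr11:110337667-110337966, minus strand: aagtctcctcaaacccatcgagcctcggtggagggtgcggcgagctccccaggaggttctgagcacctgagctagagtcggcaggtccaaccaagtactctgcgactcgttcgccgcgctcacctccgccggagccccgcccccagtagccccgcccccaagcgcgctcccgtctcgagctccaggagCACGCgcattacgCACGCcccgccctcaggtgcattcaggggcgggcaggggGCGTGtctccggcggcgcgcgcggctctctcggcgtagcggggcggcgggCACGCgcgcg
Abcb9, chr5:124095749-124096048, minus strand: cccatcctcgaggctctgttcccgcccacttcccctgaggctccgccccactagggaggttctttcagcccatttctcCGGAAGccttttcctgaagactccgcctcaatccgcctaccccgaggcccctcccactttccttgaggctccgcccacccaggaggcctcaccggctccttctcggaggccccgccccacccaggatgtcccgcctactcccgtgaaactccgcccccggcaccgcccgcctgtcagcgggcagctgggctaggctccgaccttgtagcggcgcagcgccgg
The *Abca5* promoter held 4 matches to GCGTG, 3 of which lie on the strand not printed and so appear as their reverse complement, and the *Abcb9* promoter held 1 match to CGGAAG. The *Abcb1b* promoter held none of the 4 motifs. Over the 24 promoters, GCGTG was found in 9, against 32.6% of all 32544 promoters of that length, and CGGAAG in 5, against 17%. CTTTGA was found in 3, against 16.0%, and TGANTCA in 0, against 7.79%. Of the 9 promoters whose genes were higher in mutant ECs, 3 held GCGTG, as did 1 of the 6 whose genes were lower and 5 of the 9 whose genes did not pass the test. For *Abcb1a* the RefSeq start lies 92986 bases upstream of the counted gene, so it was not among the 24.

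Of the 37 members that could be tested, 10 were called, meaning that the adjusted p was under 0.05 and the change more than 2-fold (edgeR's quasi-likelihood test, adjusted over all 16887 genes tested), where 14.0% of all genes passed these limits. *Abca8b*, *Abcb1b*, *Abca5*, *Abca6*, *Abcc9*, *Abcc1*, *Abcc3* and *Abca4* were higher in mutant ECs, against 5.90% of all genes. *Abcc6* and *Abcb9* were lower, against 8.05% of all genes. The groups did not overlap in any of the 10. Over all tested members the mutant libraries lay above all wild-type libraries in 12 (20.6% of all genes) and below them in 10 (21.9%), together set against 42.5% of all genes. The members were thus called higher at a larger share than all genes and called lower, with a count of only 2, at a smaller share, and no test of this difference was made. At an adjusted p under 0.05 alone, 12 members were higher and 12 lower, where 21.5% and 22.9% of all genes were (44.4% in either direction), and 14 of these 24 differed by less than a factor of 2. The median log2 fold change of the 37 members lay close to that of all genes in both lists: -0.083 for the efflux pumps, -0.092 for the other members and -0.025 for all genes tested.

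**Figure D1:**
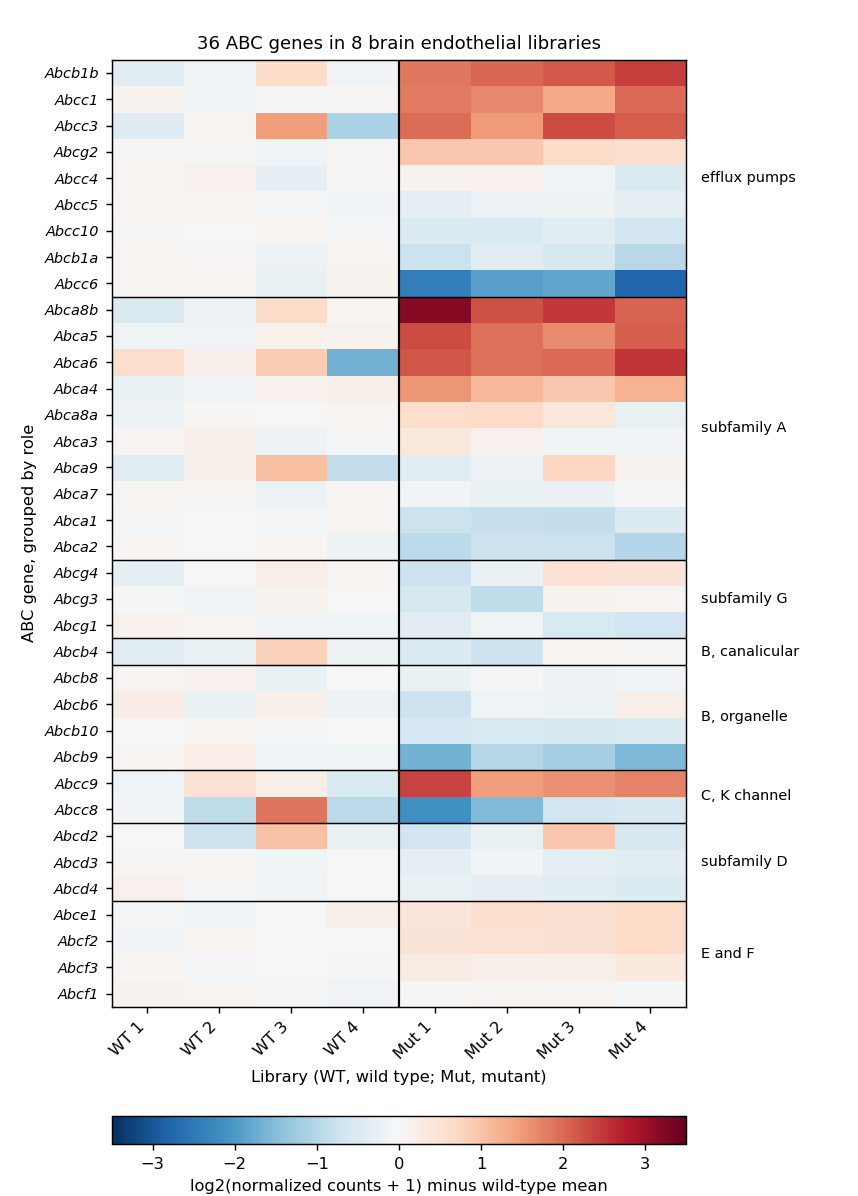
Each row is 1 of 36 ABC genes, grouped by role, and each column 1 of the 8 libraries (4 wild type, 4 mutant). Colour shows log2(normalized count + 1) minus the wild-type mean of the gene, with red for higher and blue for lower. The rows of *Abcb1b*, *Abcc1*, *Abca5* and *Abcc9* turn red in all 4 mutant libraries and those of *Abcc6* and *Abcb9* turn blue.

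P-glycoprotein transcripts changed in opposite directions at its neighbouring genes. *Abcb1a* (ENSMUSG00000040584, chr5:8660077-8748575 of GRCm38, plus strand) encodes the main form in mouse brain capillaries, and it had 17485, 23186, 20045 and 15156 normalized counts in mutant libraries 1 to 4 and 31108, 30659, 25798 and 31616 in wild-type libraries 1 to 4. Every mutant library was below every wild-type library, the nearest pair being mutant 2 and wild type 3. Its transcripts were 1.57-fold lower in mutant ECs (log2 fold change -0.65, standard error 0.13, adjusted p = 0.00225), which is within the 2-fold limit. *Abcb1b* (ENSMUSG00000028970, chr5:8798147-8866315, plus strand), the form better known from adrenal gland and the pregnant uterus, had 479, 535, 588 and 710.3 in mutant and 101, 118, 207 and 120.2 in wild-type libraries. All mutant libraries lay above all wild-type libraries, of which replicate 3 was the highest. The rise was 4.22-fold (log2 fold change 2.08, standard error 0.22, adjusted p = 6.04e-05).

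Per length, *Abcb1a* remained far above its neighbour in both groups. Its level was 183 ± 16.6 RPKM (scaled counts per kilobase of exonic length at a common library size, SD, n = 4) in wild-type ECs and 117 ± 21.2 (SD, n = 4) in mutant ECs, and that of *Abcb1b* was 0.576 ± 0.200 (SD, n = 4) and 2.44 ± 0.417 (SD, n = 4). Their summed level was 184 ± 16.4 (SD, n = 4) in wild-type ECs and 119 ± 21.0 (SD, n = 4) in mutant ECs, so the rise of *Abcb1b* did not offset the fall of *Abcb1a* in transcript abundance. *Abcb1b* made up 1.84, 1.56, 1.97 and 3.11% of this sum in mutant libraries 1 to 4 and 0.223, 0.264, 0.546 and 0.260% in wild-type libraries 1 to 4. *Abcb4*, which follows on the same strand and encodes the phosphatidylcholine exporter of bile, had 43.2 ± 19.2 normalized counts (SD, n = 4) in wild-type ECs and 34.6 ± 9.33 (SD, n = 4) in mutant ECs and did not pass the test (log2 fold change -0.32, standard error 0.33, adjusted p = 0.459).

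*Abcg2* (ENSMUSG00000029802, chr6:58584523-58695676, plus strand), the breast cancer resistance protein, moved in the direction opposite to *Abcb1a*. It had 11646, 11648, 9484 and 9096 normalized counts in mutant libraries and 6282, 6239.8, 5686 and 6248 in wild-type libraries. The groups were far apart, with a narrow range among the wild-type libraries. Transcripts of *Abcg2* were 1.71-fold higher in mutant ECs (log2 fold change 0.78, standard error 0.096, adjusted p = 0.000147), within the 2-fold limit. The level of *Abcb1a* was 7.37, 7.31, 6.75 and 7.53 times that of *Abcg2* (RPKM over RPKM) in wild-type libraries 1 to 4, and 2.23, 2.96, 3.15 and 2.48 times in mutant libraries 1 to 4. The ratio of the best-known pumps of the barrier thus had means of 7.24 ± 0.339 (SD, n = 4) and 2.71 ± 0.421 (SD, n = 4), with no overlap between the groups. This separation follows from the opposite shifts of both genes, neither of which overlapped, and is not a further result.

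**Figure D2:**
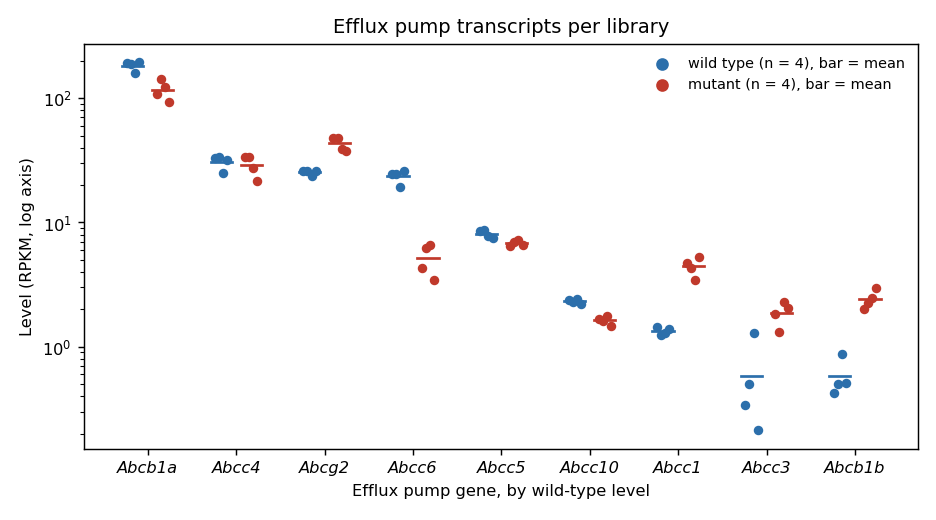
Levels of the 9 efflux pump genes (RPKM, log axis), ordered by wild-type level, with 1 point per library and a bar at the mean of each group (n = 4). *Abcb1a* and *Abcc6* sit lower in mutant libraries, and *Abcg2*, *Abcc1*, *Abcc3* and *Abcb1b* sit higher.

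The multidrug resistance-associated proteins of subfamily C moved in both directions. *Abcc6* (ENSMUSG00000030834, chr7:45967555-46030302, minus strand), whose loss causes the connective tissue calcification of pseudoxanthoma elasticum, showed the largest fall of any member. It had 737, 1056, 1121 and 582 normalized counts in mutant and 4192, 4156, 3292 and 4369.9 in wild-type libraries. The highest mutant library, replicate 3, was well below the lowest wild-type library, also replicate 3. The fall was 4.58-fold (log2 fold change -2.20, standard error 0.19, adjusted p = 2.03e-05), and the level went from 23.6 ± 2.84 RPKM (SD, n = 4) in wild-type to 5.15 ± 1.51 (SD, n = 4) in mutant ECs. *Abcc1* (ENSMUSG00000023088, chr16:14361558-14475737, plus strand), an exporter of glutathione conjugates and leukotriene C4, had 1733, 1568, 1258 and 1937 in mutant and 532, 456, 475 and 506 in wild-type libraries. The wild-type libraries lay close together and all 4 mutant libraries were above them. *Abcc1* rose 3.30-fold (log2 fold change 1.72, standard error 0.13, adjusted p = 6.90e-06). *Abcc3* (ENSMUSG00000020865, chr11:94343295-94392997, minus strand), an exporter of bile salts and glucuronides, had 309, 221, 387 and 346 in mutant and 57.1, 84.6, 218 and 35.9 in wild-type libraries. Mutant 2 was only just above wild type 3, which stood above the other wild-type libraries. The rise of *Abcc3* was 3.17-fold (log2 fold change 1.66, standard error 0.45, adjusted p = 0.0130), the least precise of the called pumps. Without wild type 3 the log2 fold change was 2.41. This library also held the most reads of choroid plexus and ependymal markers, with a summed level of 614 CPM (counts at a common library size, not divided by length) where the other 7 had 111 to 244 CPM, and the part of those cells in the *Abcc3* value was not tested.

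The remaining pumps differed by less than a factor of 2 or did not pass the test. *Abcc4* (ENSMUSG00000032849, chr14:118482692-118706219, minus strand), which exports cyclic nucleotides and urate, had 5712, 5739.9, 4704 and 3691 normalized counts in mutant and 5594, 5749, 4287 and 5385 in wild-type libraries. The ranges overlapped, with mutant 4 the lowest of the 8. It did not pass the test (log2 fold change -0.083, standard error 0.14, adjusted p = 0.668). *Abcc5* (ENSMUSG00000022822, chr16:20331303-20426394, minus strand), also an exporter of cyclic nucleotides, had 2039.8, 2195, 2256 and 2066 in mutant and 2677, 2726, 2433 and 2372 in wild-type libraries, without overlap, and was 1.19-fold lower (log2 fold change -0.25, standard error 0.070, adjusted p = 0.0136). The adjusted p of *Abcc5* was 0.0549 without mutant 1 and 0.0583 without wild type 1. *Abcc10* (ENSMUSG00000032842, chr17:46303221-46328352, minus strand), a lipophilic drug pump, had 341, 327, 358 and 301 in mutant and 484, 469, 494 and 450.3 in wild-type libraries. Its groups did not overlap and it was 1.43-fold lower (log2 fold change -0.52, standard error 0.093, adjusted p = 0.00131). The other listed pumps, *Abcc2* and *Abcc12*, had 51 and 30 reads over all 8 libraries and were outside the normalized values.

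Ordered by wild-type level per length, *Abcb1a* stood first among the pumps, followed by *Abcc4* at 30.9 ± 3.89 RPKM, *Abcg2* at 25.3 ± 1.18 and *Abcc6* at 23.6 ± 2.84 (SD, n = 4 each). The values of *Abcg2* and *Abcc6* lay within their spread of each other. *Abcc5* (8.12 ± 0.558), *Abcc10* (2.33 ± 0.0949) and *Abcc1* (1.34 ± 0.0923) followed, and *Abcc3* and *Abcb1b* were lowest and did not differ beyond their spread. In mutant ECs *Abcg2* (43.3 ± 5.66 RPKM) stood above *Abcc4* (29.2 ± 5.73), and *Abcc6* (5.15 ± 1.51) lay within its spread of *Abcc1* (4.42 ± 0.782; SD, n = 4 each). These orders depend on the length used. Exonic length was 8153 bases for *Abcg2* and 12366 for *Abcc1*, whose longest transcripts have 5717 and 6792. For *Abcc4* it was 5729 against 5715, and for *Abcc6* 5721 against 4974. The order by transcript length was not examined, so the places of *Abcg2* and *Abcc4*, and of *Abcc6* and *Abcc1*, are not settled.

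Set against the other subfamilies, the efflux pumps made up much of the ABC transcript level in these cells. The summed level of all 38 members was 526 ± 29.1 RPKM (SD, n = 4) in wild-type ECs and 445 ± 26.7 (SD, n = 4) in mutant ECs, and the groups did not overlap. The pumps summed to 276 ± 23.7 (SD, n = 4) and 211 ± 29.8 (SD, n = 4), and mutant 2 reached into the wild-type range. *Abcb1a* alone gave 34.8 ± 1.36% (SD, n = 4) of the level of all members in wild-type ECs and 26.1 ± 3.45% (SD, n = 4) in mutant ECs. Without *Abcb1a* the pumps summed to 92.7 ± 7.37 (SD, n = 4) and 94.8 ± 11.02 (SD, n = 4), with overlap. Within this remainder a fall of *Abcc6* from 23.6 to 5.15 RPKM stood against a rise of *Abcg2* from 25.3 to 43.3 RPKM. *Abcb1a* was therefore not the only pump whose fall entered the sum. By count, 3 of the 9 pumps were called higher and 1 lower, and 5 of the 28 other members tested were called higher and 1 lower, beside the 14.0% of all genes called in either direction. At an adjusted p under 0.05 alone, 4 pumps were higher and 4 lower, and 8 of the other members were higher and 8 lower, beside 21.5% and 22.9% of all genes.

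**Figure D3:**
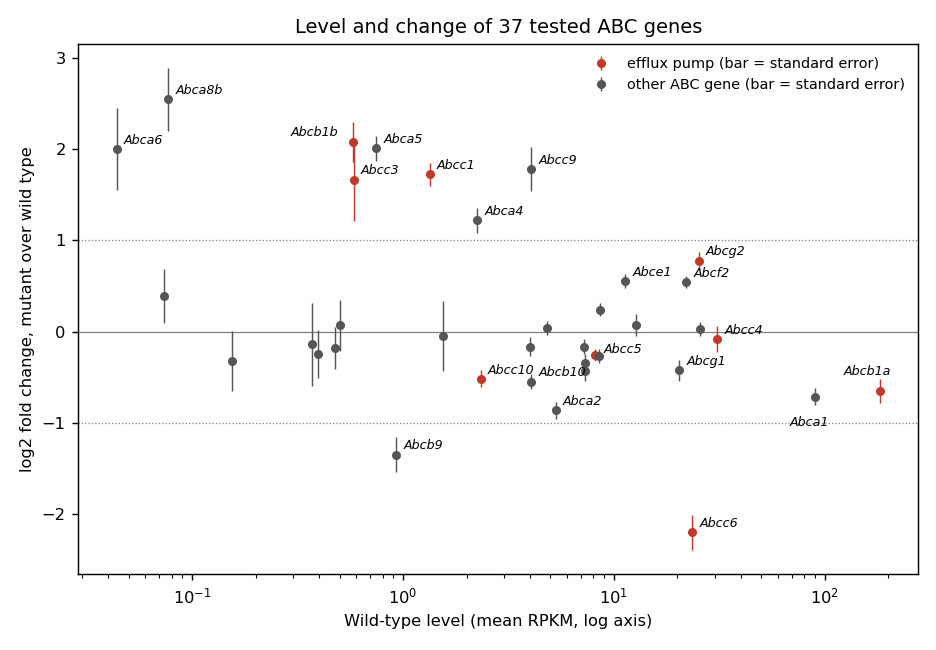
Fitted log2 fold change (mutant over wild type, bars show the standard error) of the 37 tested ABC genes against their mean wild-type level (RPKM, log axis), with efflux pumps in red and dotted lines at a log2 fold change of 1 and -1. *Abcb1a* and *Abca1*, the most abundant members, lie below 0 within the dotted lines, *Abcc6* lies lowest at -2.20, and the 8 called increases all lie below 5 RPKM in wild-type ECs.

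Subfamily A, the lipid transporters, held 4 of the 8 called increases among its 10 tested members, where 5.90% of all genes were called higher. None of the 10 was called lower, where 8.05% of all genes were. *Abca1* (ENSMUSG00000015243, chr4:53030787-53159895, minus strand), which passes cholesterol and phospholipid to apolipoproteins, was the most abundant non-pump, with 16325, 15897, 15547 and 19661 normalized counts in mutant and 26918, 27171, 26594 and 29718 in wild-type libraries. All mutant libraries were below all wild-type libraries by a wide gap. It fell 1.64-fold (log2 fold change -0.71, standard error 0.090, adjusted p = 0.000168), within the 2-fold limit. *Abca2*, best known from the myelin-forming oligodendrocytes, fell as well, from 1313 ± 104 (SD, n = 4) to 725 ± 72.5 (SD, n = 4) normalized counts (log2 fold change -0.86, standard error 0.094, adjusted p = 7.17e-05). All 9 oligodendrocyte lineage markers were called lower in the same libraries, with a summed level of 47.6 to 87.1 CPM in mutant and 127 to 348 CPM in wild-type libraries, and their part in the *Abca2* value was not tested. *Abca3*, the surfactant lipid transporter of lung, had 4239, 3678, 2948 and 3079.6 in mutant and 3493, 3707, 2921 and 3121 in wild-type libraries. These ranges overlapped (log2 fold change 0.074, standard error 0.12, adjusted p = 0.648). *Abca7*, a phospholipid transporter linked to Alzheimer's disease, had 1439 ± 122 (SD, n = 4) and 1285 ± 98.5 (SD, n = 4) in wild-type and mutant ECs, and did not pass the test (log2 fold change -0.16, standard error 0.085, adjusted p = 0.145).

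*Abca4* (ENSMUSG00000028125, chr3:122044443-122180123, plus strand), the retinoid flippase of photoreceptors, had 2315, 1760.3, 1520.4 and 1866 normalized counts in mutant and 679, 726, 884 and 917 in wild-type libraries. The highest wild-type library, replicate 4, stayed below the lowest mutant library, replicate 3. *Abca4* rose 2.33-fold (log2 fold change 1.22, standard error 0.14, adjusted p = 9.35e-05), to a level of 5.23 ± 0.932 RPKM (SD, n = 4).

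The other called members of the subfamily lie on chromosome 11 in a run of 5 paralogs, in the order *Abca8b*, *Abca8a*, *Abca9*, *Abca6* and *Abca5*, all on the minus strand. *Abca5* (ENSMUSG00000018800, chr11:110269369-110337716), a lysosomal and endosomal protein, had 1239.6, 964, 806 and 1073 normalized counts in mutant and 230.3, 232, 279 and 274 in wild-type libraries. The wild-type libraries lay close together and far below the mutant libraries. *Abca5* rose 4.02-fold (log2 fold change 2.01, standard error 0.14, adjusted p = 5.11e-06), the smallest adjusted p of any member. *Abca8b* (ENSMUSG00000020620, chr11:109932190-109995845), a plasma membrane lipid transporter, had 157, 79.6, 95.3 and 69.6 in mutant and 11.1, 14.1, 25.9 and 16.9 in wild-type libraries. The lowest mutant library was still above wild type 3, the highest of its group. It had the largest rise of the family, 5.83-fold from a low level (log2 fold change 2.54, standard error 0.34, adjusted p = 0.000236). *Abca6* (ENSMUSG00000044749, chr11:110176820-110251776) was rarest, with 23, 22, 23 and 42 reads counted in mutant and 10, 7, 13 and 1 in wild-type libraries before scaling. The scaled values did not overlap, and the rise of 3.99-fold (log2 fold change 2.00, standard error 0.45, adjusted p = 0.00458) rests on these few reads.

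The genes between them did not pass the test. *Abca8a*, which lies between *Abca8b* and *Abca9*, had 21.5, 22.1, 17.7 and 11.3 normalized counts in mutant and 11.97, 14.1, 13.8 and 14.8 in wild-type libraries (log2 fold change 0.39, standard error 0.30, adjusted p = 0.306). *Abca9* had 244, 282, 549.6 and 353 in mutant and 245, 364, 679.6 and 182 in wild-type libraries, and replicate 3 was the highest of each group (log2 fold change -0.043, standard error 0.38, adjusted p = 0.937). The same libraries had the highest summed level of microglia and macrophage markers of their groups, 457 CPM in mutant 3 and 561 CPM in wild type 3, and the part of those cells in the spread of *Abca9* was not tested. Beyond the cluster, *Fam20a* on one side (-0.23) and *Map2k6* on the other (0.25) did not pass the test, with adjusted p of 0.223 and 0.194, and *Prkar1a*, which lies beyond *Fam20a*, was higher (0.39, adjusted p = 9.77e-04). Called and uncalled genes thus stood side by side within a single run of paralogs. For *Abca8a*, with only 11.3 to 22.1 normalized counts, not passing the test does not show a difference from its neighbours. On chromosome 5 the order was *Rundc3b* (0.22, adjusted p = 0.298), *Abcb1a*, the antisense gene model Gm42686 (-0.72, 0.00923), *Abcb1b*, *Abcb4* and *Crot* (-0.47, 8.19e-04), with *Abcb1b* the only rise that passed the test among them. Gm42686 overlaps 10.1% of the exonic bases of *Abcb1a* on the opposite strand, and without strand their reads cannot be told apart. The same limit holds for *Abca3* (10.4% of exonic bases) and *Abcb10* (10.3%), and the opposite-strand overlap was at most 3.25% for every other member.

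**Figure D4:**
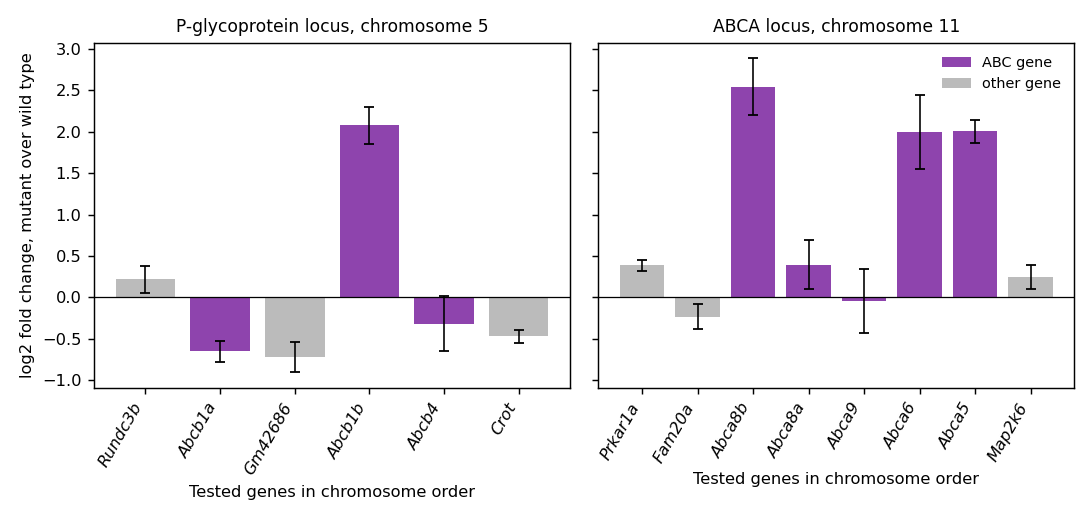
Fitted log2 fold change (mutant over wild type) of the tested genes in chromosome order at the *Abcb1a* to *Abcb4* locus on chromosome 5 and the *Abca8b* to *Abca5* locus on chromosome 11, with bars for the standard error, ABC genes in purple and neighbours in grey. *Abcb1b* rises beside the lower *Abcb1a*, and *Abca8b*, *Abca6* and *Abca5* rise beside *Abca8a* and *Abca9*.

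In subfamily G, *Abcg1* (ENSMUSG00000024030, chr17:31057698-31115777, plus strand), which exports cholesterol to high-density lipoprotein, had 1903, 2218, 1702 and 1548 normalized counts in mutant and 2729, 2635, 2305 and 2208 in wild-type libraries. Mutant 2 was just above wild type 4, so the groups overlapped. *Abcg1* was 1.34-fold lower (log2 fold change -0.42, standard error 0.12, adjusted p = 0.0128), the same direction as *Abca1*. *Abcg3* and *Abcg4* were rare, with means of 34.9 to 81.0 normalized counts per group, and did not pass the test (0.486 and 0.856 adjusted p). The sterol exporters of liver and gut, *Abcg5* and *Abcg8*, had 26 and 15 reads over all libraries and were not in the normalized values.

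Among the lipid efflux partners and liver X receptor targets, 1 of 9 genes was called higher and 1 lower, a count near the 5.90% and 8.05% of all genes. *Pltp*, the phospholipid transfer protein that remodels high-density lipoprotein, had 4994, 9566, 11407 and 6072 normalized counts in mutant and 41370.3, 38866, 31544 and 36541 in wild-type libraries. The gap between the groups exceeded the range of either, and *Pltp* was 4.63-fold lower (log2 fold change -2.21, standard error 0.24, adjusted p = 6.19e-05). *Lpl*, the lipoprotein lipase that acts on the endothelial surface, had 1213, 1888, 1605 and 1754 in mutant and 178, 226, 476 and 273 in wild-type libraries, again without overlap. It rose 5.59-fold (log2 fold change 2.48, standard error 0.27, adjusted p = 7.23e-05). *Scarb1* (-0.68, adjusted p = 0.000766), *Lcat* (-0.47, 0.0166) and *Mylip* (-0.45, 0.00932) were lower within the 2-fold limit. *Apoe*, *Srebf1*, *Lpcat3* and *Apoa1* did not pass the test, and the median of the 9 was 0.049, where all genes had -0.025.

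The organelle transporters of subfamily B were lower or did not pass the test. *Abcb9* (ENSMUSG00000029408, chr5:124061530-124095798, minus strand), a lysosomal peptide transporter, had 48.1, 76.3, 67.6 and 50.5 normalized counts in mutant and 160.3, 179, 138 and 139 in wild-type libraries. The highest mutant library was far below the lowest wild-type library, and the fall was 2.54-fold (log2 fold change -1.34, standard error 0.19, adjusted p = 0.000334). *Abcb10*, a mitochondrial inner membrane protein needed for haem synthesis, had 344, 357, 348 and 368 in mutant and 516, 543, 501 and 514 in wild-type libraries, a narrow range in each group. It was 1.46-fold lower (log2 fold change -0.55, standard error 0.082, adjusted p = 0.000458). All 5 red blood cell markers were called lower in the same libraries, with a summed level of 86.7 to 285 CPM in mutant and 530.3 to 920.4 CPM in wild-type libraries, and their part in the *Abcb10* value was not tested. *Abcb8*, a mitochondrial protein, and *Abcb6* did not pass the test, with log2 fold changes of -0.16 and -0.18.

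Members of subfamily D were lower within the 2-fold limit or did not pass the test. *Abcd4*, a lysosomal protein of cobalamin transport despite its family name, went from 548 ± 46.9 normalized counts (SD, n = 4) in wild-type to 431 ± 34.7 (SD, n = 4) in mutant ECs, without overlap (log2 fold change -0.35, standard error 0.099, adjusted p = 0.0162). Its adjusted p was 0.0522 without mutant 4 and 0.0639 without wild type 1. *Abcd3*, a peroxisomal fatty acid importer, had a log2 fold change of -0.26 (adjusted p = 0.0173) with overlapping groups, and adjusted p of 0.0574, 0.0584, 0.0575 and 0.0505 without mutant 1, mutant 4, wild type 1 or wild type 2. *Abcd2* was rare and did not pass the test (-0.14, adjusted p = 0.824).

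The soluble members of subfamilies E and F included no called gene. At an adjusted p under 0.05, 3 of the 4 rose within the 2-fold limit, beside 21.5% of all genes, and the other did not pass the test. *Abce1* (ENSMUSG00000058355, chr8:79683462-79711740), which splits ribosomes after termination, had 2715, 3044, 2893 and 3208 normalized counts in mutant and 1905, 1875, 2030 and 2270.4 in wild-type libraries, without overlap. It rose 1.47-fold (log2 fold change 0.55, standard error 0.081, adjusted p = 0.000395). *Abcf2* (ENSMUSG00000028953, chr5:24565345-24577467) had 2317, 2389.5, 2415 and 2682 in mutant and 1586, 1771, 1689 and 1687 in wild-type libraries, with a gap as clear. Its rise was 1.46-fold (log2 fold change 0.54, standard error 0.069, adjusted p = 0.000165). *Abcf3* rose 1.18-fold, also without overlap (log2 fold change 0.24, standard error 0.070, adjusted p = 0.0174), with an adjusted p of 0.0572 without wild type 2. *Abcf1* (ENSMUSG00000038762), which acts in the initiation of translation, had 3409.8, 3516, 3573 and 3196 in mutant and 3609, 3581, 3156 and 3046 in wild-type libraries. These ranges overlapped and *Abcf1* did not pass the test (log2 fold change 0.032, standard error 0.076, adjusted p = 0.756).

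*Abcc9* and *Abcc8* encode the sulfonylurea receptors, the regulatory subunits of ATP-sensitive potassium channels. *Abcc9* (ENSMUSG00000030249, chr6:142587862-142702315, minus strand), which pairs with the pore encoded by *Kcnj8* and in brain is best known from pericytes, had 4984, 2691, 2958 and 3227 normalized counts in mutant and 872, 1373, 1115 and 674 in wild-type libraries. Mutant 1 stood highest, and the lowest mutant library was still above the highest wild-type library, replicate 2. *Abcc9* rose 3.43-fold (log2 fold change 1.78, standard error 0.24, adjusted p = 0.000236), to 13.9 ± 4.17 RPKM (SD, n = 4) from 4.06 ± 1.22 (SD, n = 4). *Kcnj8* had 653, 469.9, 594 and 439.6 in mutant and 278, 411, 374 and 161 in wild-type libraries, also without overlap, and rose 1.76-fold (log2 fold change 0.81, standard error 0.25, adjusted p = 0.0242). The level of *Abcc9* relative to that of *Kcnj8* (RPKM over RPKM) was 1.04 ± 0.162 (SD, n = 4) in wild-type ECs and 1.95 ± 0.387 (SD, n = 4) in mutant ECs, with no overlap. Of the 9 pericyte markers, which include *Kcnj8*, none of the other 8 passed the test, and the summed level of the 9 was 678 to 1252 CPM in mutant and 703 to 1323 CPM in wild-type libraries.

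*Abcc8* was near the limit of detection, with 2, 4, 8 and 11 reads in mutant libraries and 15, 8, 66 and 7 in wild-type libraries. It was not tested, since it did not pass the filter on low counts, and wild type 3 held most of its reads. *Kcnj11*, the pore that pairs with it, was not tested for the same reason.

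**Figure D5:**
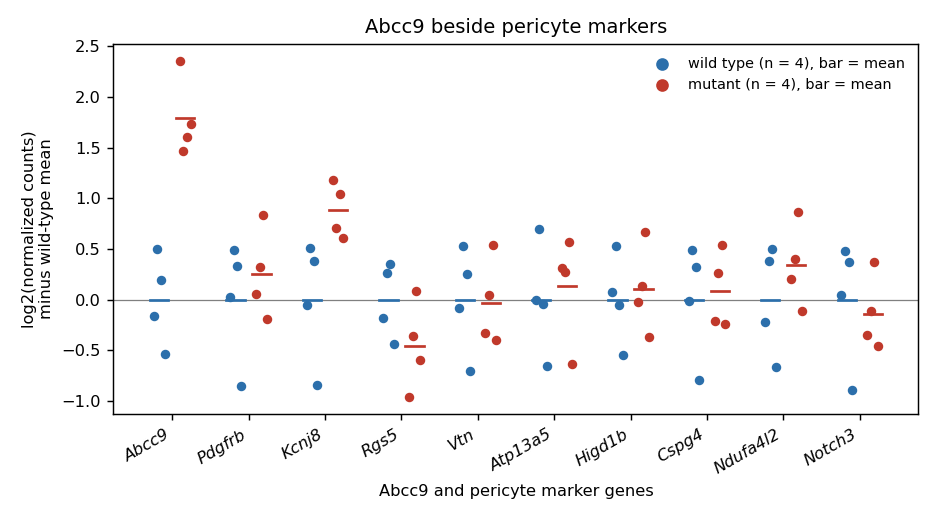
Log2 normalized counts minus the wild-type mean of each gene, for *Abcc9* and the 9 pericyte marker genes, with 1 point per library and a bar at the mean of each group (n = 4). All 4 mutant libraries lie above all wild-type libraries for *Abcc9* and *Kcnj8*, and the groups overlap for the other 8 markers.

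ABC proteins with other symbols and the channel and peroxisome partners gave 1 call among 7 tested genes, about the 14.0% of all genes. *Cftr*, the chloride channel of subfamily C mutated in cystic fibrosis, had 37.99, 47.5, 34.4 and 54.8 normalized counts in mutant and 12.9, 12.2, 9.51 and 6.33 in wild-type libraries. All mutant libraries lay above all wild-type libraries, and *Cftr* rose 4.22-fold (log2 fold change 2.08, standard error 0.30, adjusted p = 0.000323) from a low level. *Tapbp*, the chaperone of the peptide transporter that loads MHC class I, was slightly lower (-0.37, adjusted p = 0.00666). The transporter genes themselves, *Tap1* (0.34, adjusted p = 0.0912) and *Tap2* (0.17, 0.132), and the peroxisome assembly genes *Pex3* and *Pex19* did not pass the test.

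Of 12 tested transcriptional regulators of ABC genes, *Ahr*, the aryl hydrocarbon receptor, was the only gene called, where 14.0% of all genes were. It had 2738, 2245, 1839.5 and 2160.4 normalized counts in mutant and 607, 556, 708 and 735 in wild-type libraries. The groups were widely separated and *Ahr* rose 3.44-fold (log2 fold change 1.78, standard error 0.13, adjusted p = 7.02e-06). *Esr1* (0.74, adjusted p = 0.0255) and *Nfe2l2* (0.28, 0.0413), an oxidative stress regulator, were higher within the 2-fold limit. *Nr3c1*, the glucocorticoid receptor (-0.79, 3.11e-05), and *Rxra*, the partner of many nuclear receptors (-0.35, 0.00936), were lower. The liver X receptors *Nr1h2* (-0.077, 0.501) and *Nr1h3* (0.052, 0.873) and the Wnt effector *Ctnnb1* (-0.030, 0.751) did not pass the test. *Nr1i2*, the pregnane X receptor, had too few reads to be tested.

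The libraries held 24833373 to 34196955 counts on genes. *Map2k1* itself, whose reads include those of the cDNA, had 12692 to 18734 normalized counts in mutant and 1506 to 1762 in wild-type libraries, as labelled. The 10 endothelial markers were present in all libraries with overlapping summed levels of 11274 to 13448 CPM in mutant and 10749 to 12926 CPM in wild-type libraries, and *Cdh5* was called higher. At an adjusted p under 0.05, *Emcn* (0.82) and *Pecam1* (0.53) were also higher, and *Kdr* (-0.59), *Tek* (-0.44) and *Cldn5* (-0.47) were lower. Markers of other cells were also present. Besides the oligodendrocyte and red blood cell lists, 4 of 7 neuron markers (*Tubb3*, *Snap25*, *Stmn2* and *Map2*) were called lower, where 8.05% of all genes were. So were 3 of 6 choroid plexus and ependymal markers (*Folr1*, *Kcnj13* and *Foxj1*), and *Clic6* of that list was called higher. The groups overlapped for *Snap25*, *Folr1* and *Kcnj13*. The neuron marker *Rbfox3* lay the other way (log2 fold change 1.185, adjusted p = 0.0515) and did not pass the test. The first characters of the sample labels form 3 prefixes that each cover both groups and whose meaning is not given. Wild-type pups had been chosen at random in each litter, in the same number as its mutant pups, and which libraries share a litter is not given in the sources used here. Within each prefix, all 10 called members and all 24 members with an adjusted p under 0.05 differed in the direction of the pooled fit. Mutant 3 and wild type 3 alone share a prefix, as mutant 4 and wild type 4 share another. Where the groups do not overlap, as in all of these members but *Abcg1* and *Abcd3*, the direction within a prefix was fixed in advance. The agreement therefore adds no support to the pooled fit.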

How the data were processed

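RNA of CD31-selected brain ECs (4 mutant and 4 wild-type P9 pups, grouped by the labels) was enriched for poly(A) and sequenced as paired mates. Trimmed (Trimmomatic) and mapped (STAR, GRCm38) by the authors, the reads were deposited as whole-number counts for 49315 genes per library. The counting program, annotation release and use of strand are not given in the sources used here. The deposited signal for 16889 genes is these counts divided by DESeq2 size factors, and multiplying back gave whole reads for 100% of values (tolerance 0.01 reads). This set defined the members, and the unnormalized counts were tested. Symbols came from GENCODE vM21 (48970 matched). Each library came from a separate pup. A few genes are counted but not reported here.

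The tests used edgeR 4.0.16 under R 4.3.3 (filterByExpr minimum count 10, TMM scaling, glmQLFit and glmQLFTest, Benjamini-Hochberg over all 16887 genes tested). Standard errors are the log2 fold change divided by the square root of F. Normalized counts are TMM-scaled at the mean library size, and RPKM uses exonic lengths of the count files. Exonic length can exceed that of the longest transcript, so ratios, shares and orders of RPKM between genes depend on it. Replicates of a group differed by more than sampling noise (chi-square per degree of freedom 7.31 to 41.6 over 12 pairs). In simulated counts for 16887 genes, of which only 200 were changed, 175 of the 200 were called, and 4 unchanged genes. How many genes are missed in the data themselves, where 7504 had an adjusted p under 0.05, was not tested. The members, the role, pathway and marker lists and the tests were chosen with earlier results of these data known. Named with all values are members past both limits, tested efflux pumps, the 10 highest by RPKM in wild type, *Abcc8*, *Abcc9*, *Abca1* and *Abcg1*, and genes of other lists past both limits (cell markers by name only); a few others were named after their values were seen. The alternatives were DESeq2 1.42.0, RLE scaling, other filters and limits, the replicate number or label prefix as a block, and each library left out. Depth leaves counting error small for all members except those with under 100 normalized counts.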

Additional observations from a re-analysis of the deposited data

Results flagged for a closer look

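In 6 of the 76 groups of 4 libraries formed by the 38 members, the highest or lowest library lay farther from its group than Dixon's criterion at 95% allows, where chance gives about 1 in 20. In 5 of these the library was wild type replicate 3. It was the lowest wild-type library for *Abcb1a* (25798 normalized counts, the other 3 from 30659 to 31617), *Abcg2* (5686, the others from 6240 to 6282) and *Abca7* (1256, the others from 1481 to 1512). It was the highest for *Abcb4* (71.8, the others from 30.4 to 35.9) and *Abcc8* (57.1, the others from 7.38 to 13.8). *Abcd2* was high in mutant replicate 3 (106 normalized counts, the others from 34.2 to 45.3). Both libraries numbered 3 had the highest summed level of microglia and macrophage markers of their groups, 561 CPM in wild type 3 and 457 CPM in mutant 3, and wild type 3 had the most choroid plexus and ependymal marker reads, 614 CPM. Wild type 3 also had the lowest summed endothelial marker level of all libraries, 10749 CPM, where the other wild-type libraries had 12626 to 12926 CPM. Its neuron markers (90.4 CPM, other wild-type libraries 40.6 to 67.5) were the highest of its group. So were its smooth muscle markers (232 CPM, other wild-type libraries 98.0 to 187). The part of those cells in these values was not tested. None of the 5 members with a flagged wild-type library was called, and *Abcb1a* and *Abcg2* kept their direction and an adjusted p under 0.05 without it.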

How the results depend on the processing

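DESeq2, RLE scaling, no filter on low counts, the genes of the deposited normalized values and the label prefix as a block each called the same 10 members. A mean of at least 100 normalized counts left *Abca6* and *Abca8b* untested, so 8 members were called, with 1195 genes called in all against 2356. Without the limit on fold, 12 members were higher and 12 lower, with 8 efflux pumps, 16 other members and 7504 genes in all. With each library left out in turn, 8 members were called higher in every fit, 2 to 3 lower, 6 to 7 outside the pumps and 2168 to 2662 genes in all; the added member was *Abcc8*, which passed the filter without wild type replicate 4. The median log2 fold change ranged from -0.16 to 0.059 for the pumps (above 0 without mutant replicate 4) and from -0.18 to 0.025 for the other members (above 0 without wild type replicate 3). The sign turned for *Abca3* (-0.0086 without mutant replicate 1, up to 0.15 without others), *Abcc4* (0.059 without mutant replicate 4) and *Abcf1* (-0.013 without wild type replicate 4, up to 0.089), none of which passed the test. Relative to both limits together, the other 310 of 313 values kept their direction and side. Against an adjusted p of 0.05 alone, *Abcc5*, *Abcd3*, *Abcd4* and *Abcf3* lost significance in 10 fits between them (adjusted p from 0.0505 to 0.0639), 9 with a library left out and 1 without a filter on low counts (*Abcf3*, 0.0562).

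Replicate numbers were not taken as pairs: the correlations of same-numbered libraries' deviations were 0.193, 0.201, 0.283 and 0.020, and not every library correlated best with its own number. With the replicate number as a block, the same 10 members (8 higher, 2 lower) and 2431 genes in all were called.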
